A study of Bos taurus with 9 samples.

Results

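The genes described here are 36 genes of the unfolded protein response and of protein folding in the endoplasmic reticulum (ER). They were chosen by symbol for their known roles, with earlier results of these data known, and all 36 were found among the 22127 genes of the table. They cover the stress sensors with their transcription factors, the chaperones, the disulphide enzymes, the degradation machinery and the protein channel of the ER. Transcripts were measured by RNA sequencing in 9 libraries, each made from 9 to 11 pooled bovine blastocysts of day 8. The blastocysts grew from oocytes that had been matured for 24 h, still inside their cumulus cells, in 1 of 3 media, with 3 libraries for each. The glucose concentration was 5.5 mM in control and 2.75 mM in low glucose medium, and the remaining medium combined 2.75 mM glucose with 1.8 mM BHB, an abbreviation without explanation in the labels, read here as beta-hydroxybutyrate, a ketone body. All 3 media also held serum, pyruvate, gentamicin, FSH and estradiol, and fertilisation and embryo culture did not differ between groups by the labels.

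Proteins bound for the membrane or for secretion fold inside the ER. When unfolded proteins build up there, the sensors IRE1, PERK and ATF6 are released from the chaperone BiP; IRE1 then splices the mRNA of XBP1, PERK slows translation, and ATF6 is cut to free a transcription factor. These branches raise the transcription of chaperones, folding enzymes and the machinery that exports misfolded proteins for degradation. The blastocyst has a secretory epithelium, the trophectoderm, and its cells use this machinery also without stress. Counts per gene do not separate spliced from unspliced XBP1, and neither protein levels nor the phosphorylation of the sensors were measured.

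The libraries held 55611205 to 75178898 estimated counts in all, and each of the 36 genes had at least 204 counts in every library. Levels below are CPM, counts scaled to the size of the library, with TMM factors that correct for its composition. The level of a gene is compared only with itself, since transcript length was not available. No label states that replicates were separate cultures, and the p-values therefore reflect only the spread among these samples, part of which may be technical. The labelled tissue was checked against its markers: KRT8, KRT18 and CDX2 of the trophectoderm, POU5F1 and NANOG of the epiblast, and GATA6 and SOX17 of the hypoblast were detected. In pooled embryos, fewer cells of a type and less RNA per cell cannot be told apart.

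None of the 36 genes passed the test in any comparison of media. Against control, 32 of 36 fitted log2 fold changes were above 0 in blastocysts from low glucose and their median was 0.13, while 53.2% of all 16469 tested genes were above 0 with a median of 0.02. With BHB, 24 of 36 were above 0 and the median was 0.08, beside 51.5% and a median of 0.01 for all genes. Between the low glucose media, 8 of 36 were above 0 with BHB and the median was -0.08, beside 51.2% and a median of 0.01. With both low glucose media together against control, 28 of 36 were above 0, beside 52.8%. The comparisons with control share the control libraries, and the comparison between the low glucose media is their difference, so these counts are not independent of each other. Single libraries moved them. In low glucose, 24 of 36 genes were above 0 and the median was 0.08 without the first low glucose library, while the median was 0.25 without the third and 0.21 without the third control library. Without the second BHB library, 7 of 36 genes were above 0 for BHB against control and the median was -0.09, while it was 0.15 without the first BHB library and 0.13 without the third. With both media together, 28 of 36 became 24 of 36 and the median of 0.12 became 0.04 without the second BHB library, and the median was 0.07 without the first control library. Between the low glucose media, 19 of 36 were above 0 with a median of 0.0048 without the first low glucose library, 20 of 36 with 0.023 without the third BHB library, and 17 of 36 with -0.013 without the first; it was -0.043 and -0.15 without the second and the third low glucose library, and -0.22 without the second BHB library.

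Markers of the embryo's own cell types were compared in the same fit, and their part in the result was not tested. All 11 trophectoderm markers had fitted log2 fold changes above 0 in both low glucose media against control, with medians of 0.23 and 0.22. Of all tested genes, 53.2% and 51.5% were above 0. The test called 0 of the 11 each time, beside 2.03% and 1.38% of all genes. At an unadjusted p under 0.05 in edgeR, 3 of 11 were higher each time, beside 0.996% and 1.82% of all genes. Their summed level was 13770 to 18865 CPM in control libraries, 16786 to 19758 CPM in low glucose and 17293 to 22187 CPM with BHB. The first control library was the lowest of its medium for 11 of 11 trophectoderm markers, beside 40.5% of all tested genes. It was also the lowest for 4 of 6 epiblast and 6 of 8 hypoblast markers. The part of this single library in the fold changes of these lists was not tested. All 6 tested epiblast markers were also above 0, with medians of 0.16 and 0.18, 0 called, and summed levels of 1348 to 1439, 1374 to 1662 and 1516 to 1605 CPM. Of 8 hypoblast markers, 5 and 4 were above 0, with summed levels of 963 to 1337, 980 to 1312 and 1053 to 1506 CPM. Their median log2 fold changes were 0.14 and 0.07, and the highest were 1.11 in low glucose and 0.74 with BHB. The test called 2 of 8 lower in each medium, beside 2.03% and 1.38% of all genes called, and 0 higher. GATA4 and RBP4 of this list fell in both media: GATA4, a transcription factor, had log2 fold changes of -1.45 (SE 0.25, adjusted p = 0.00802, edgeR) in low glucose and -1.13 (SE 0.24, adjusted p = 0.0432) with BHB, and RBP4, the retinol carrier, -1.38 (SE 0.29, adjusted p = 0.0282) and -1.73 (SE 0.29, adjusted p = 0.0127). The call of GATA4 with BHB was lost without any control library, the third low glucose library or the first or the third BHB library, and in a fit of the control and BHB libraries alone (-0.94 to -1.22, adjusted p from 0.0538 to 0.219, edgeR). That of RBP4 was lost in low glucose without the first or the third control or any low glucose library (-1.04 to -1.48, adjusted p from 0.0578 to 0.149), and with BHB without the first control library (-1.39, adjusted p = 0.0501).

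In edgeR's quasi-likelihood test with Benjamini-Hochberg adjustment over all tested genes, 0 of 36 were called at an adjusted p under 0.05 for low glucose against control, where 2.03% of all genes were called. The count was 0 of 36 for BHB against control, with 1.38% of all genes called, and 0 of 36 for BHB against low glucose, with 0% called. For both low glucose media together against control it was 0 of 36, with 2.87% called. At an unadjusted p under 0.05, the counts were 1 of 36 in low glucose, where 7.33% of all genes passed, 0 with BHB, where 7.32% passed, 0 between the low glucose media, where 1.64% passed, and 1 for both low glucose media, where 8.7% passed. CRELD2 was the gene that passed both times. In the same order the counts at an unadjusted p were 1, 0, 0 and 1 with DESeq2 and 2, 0, 0 and 1 with limma-voom, and both tools made 0 calls among the 36 after adjustment.

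The fit also gave an interval for each single gene, which like the p-values reflects only the spread among these samples. The 95% interval of the fold change lay within 2-fold in both directions for 35 of 36 genes in low glucose, where this held for 60.9% of all tested genes. The exception was CREB3L2. With BHB it held for 36 of 36 against control, beside 61.2%, for 36 of 36 against low glucose, beside 64.1%, and for 36 of 36 with both low glucose media together, beside 64.8%. The 36 genes had at least 204 counts in every library, while the filter for all genes used a minimum count of 10. Genes of similar count were not compared, so these shares do not set the 36 genes apart. Fitted log2 fold changes ran from -0.55 to 0.49 in low glucose, from -0.34 to 0.38 with BHB and from -0.26 to 0.27 between the low glucose media.

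**Figure D1:**
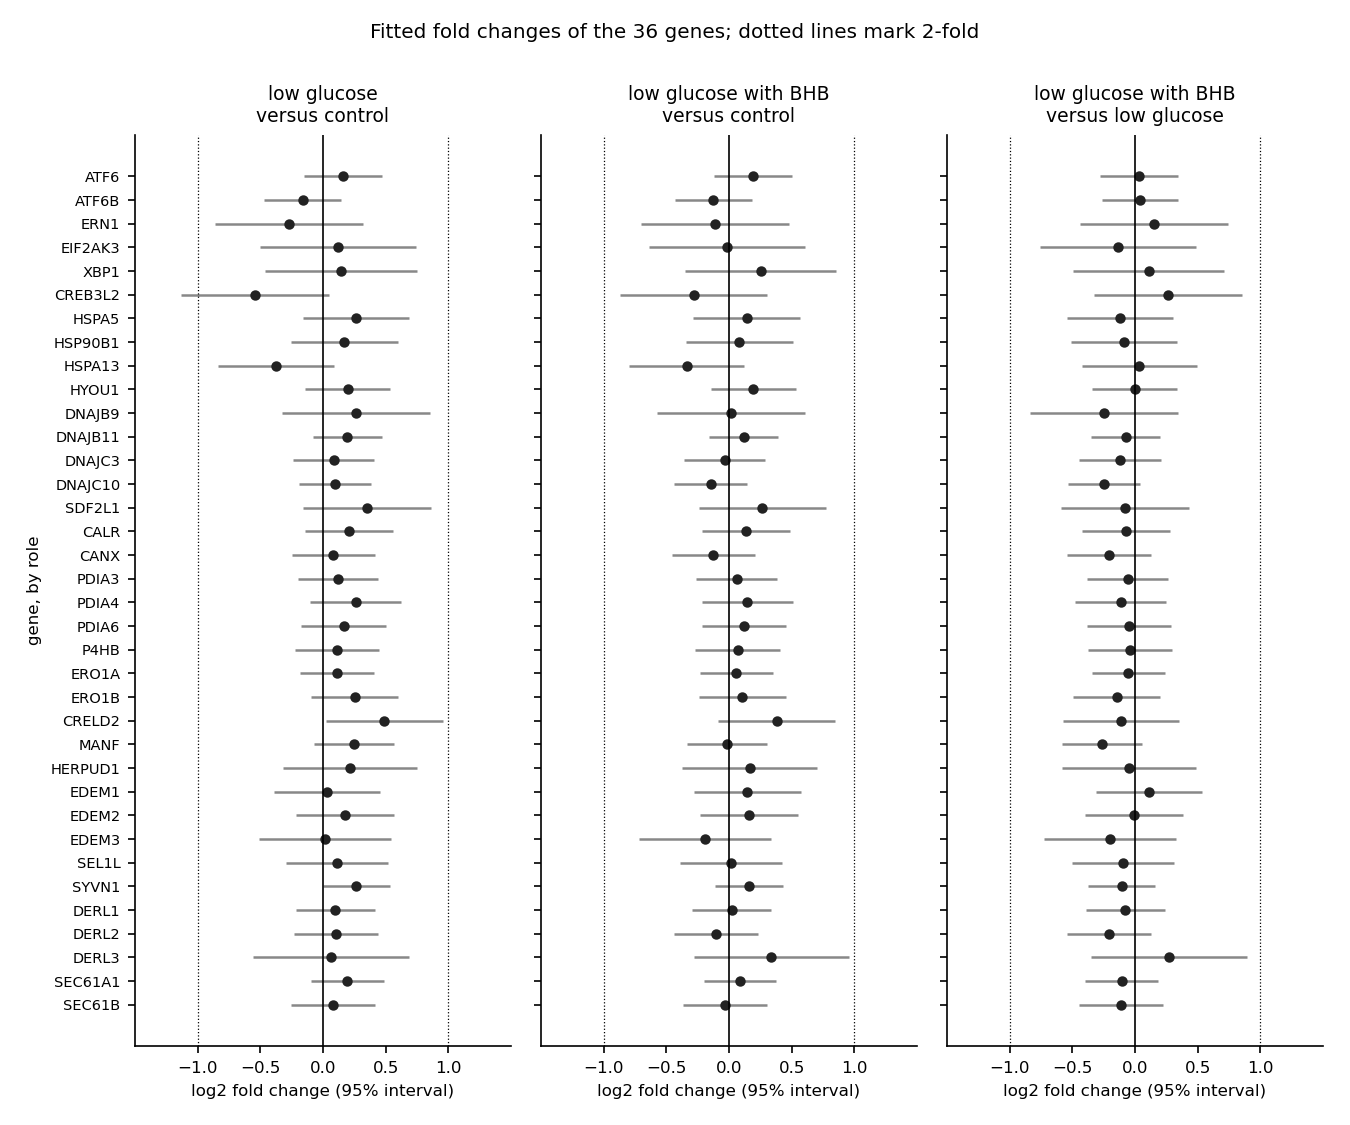
Fitted log2 fold changes (x axis) of the 36 genes, ordered by role (y axis), in 3 panels, each low glucose medium against control and then the BHB medium against low glucose. Points are estimates from the fit of all 9 libraries and lines their 95% intervals, of which all but that of CREB3L2 in low glucose stay between the dotted lines at 2-fold.

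Among the sensors and transcription factors, 3 of 6 fitted fold changes were above 0 in low glucose and 2 of 6 with BHB, with medians of -0.02 and -0.06 on the log2 scale. ATF6 (ENSBTAG00000005227), the sensor that becomes a transcription factor after cleavage in the Golgi, stood at 19.8, 17.7 and 19.7 CPM in the control libraries, 23.3, 20.1 and 20.4 CPM in those of low glucose and 22.5, 23.6 and 19.2 CPM in those with BHB. Its low glucose libraries all lay above the control libraries by a narrow margin, and the BHB libraries overlapped both groups. The fitted log2 fold change was 0.16 (SE 0.14) in low glucose and 0.19 (SE 0.14) with BHB. ATF6B, its paralog, had a fitted value of the other sign: at 20.9 ± 1.29 CPM in the control group (SD, n = 3), 18.7 ± 0.930 in low glucose and 19.2 ± 1.99 with BHB, its low glucose libraries all lay below the control libraries, with a log2 fold change of -0.16 (SE 0.14).

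XBP1 (ENSBTAG00000005970), the transcription factor whose mRNA IRE1 splices, stood at 44.0, 74.8 and 84.5 CPM in the control libraries, 75.0, 89.6 and 60.0 CPM in those of low glucose and 50.6, 109 and 82.8 CPM in those with BHB. Its spread between replicates was wide in every medium, and the first library was the lowest in control and with BHB. XBP1 had a log2 fold change of 0.14 in low glucose, with a 95% interval of -0.46 to 0.75, and 0.25 with BHB, with an interval of -0.35 to 0.86. ERN1 (ENSBTAG00000016799), which encodes IRE1, stood at 6.44, 4.84 and 4.49 CPM in the control libraries, 4.75, 4.87 and 3.46 CPM in those of low glucose and 4.56, 6.23 and 3.76 CPM in those with BHB, and EIF2AK3 (ENSBTAG00000000184), which encodes PERK, at 17.7, 14.1 and 19.1 CPM in the control libraries, 22.1, 21.6 and 11.6 CPM in those of low glucose and 12.8, 24.2 and 13.3 CPM in those with BHB. In both genes the groups overlapped, and the third library was the lowest of the low glucose group. Log2 fold changes of ERN1 were -0.27 (SE 0.27) in low glucose and -0.11 (SE 0.27) with BHB, and those of EIF2AK3 were 0.12 (SE 0.29) and -0.016 (SE 0.29).

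CREB3L2 (ENSBTAG00000015802), a membrane-bound transcription factor related to ATF6, had the most negative fitted fold change of the 36 genes in low glucose. It stood at 12.5, 13.8 and 15.5 CPM in the control libraries, 9.45, 13.3 and 5.89 CPM in those of low glucose and 9.61, 14.5 and 10.2 CPM in those with BHB. The third low glucose library lay far below the other two, and the second low glucose and second BHB libraries were at control level, so all groups overlapped. Its log2 fold change was -0.55 in low glucose (95% interval -1.13 to 0.044, adjusted p = 0.772, edgeR) and -0.28 with BHB (95% interval -0.87 to 0.31).

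Of the 9 chaperones and co-chaperones, 8 fitted fold changes were above 0 in low glucose and 6 with BHB, with medians of 0.20 and 0.08 on the log2 scale. HSPA5 (ENSBTAG00000007662) encodes BiP, the Hsp70 chaperone of the ER and the usual reporter of the response. It stood at 493, 457 and 495 CPM in the control libraries, 664, 634 and 437 CPM in those of low glucose and 461, 707 and 425 CPM in those with BHB. The first and second low glucose libraries and the second BHB library lay above every control library. The remaining low glucose and BHB libraries lay within or below the control range. The log2 fold change was 0.26 in low glucose (95% interval -0.16 to 0.69), 0.14 with BHB (95% interval -0.28 to 0.56) and -0.12 between the low glucose media (95% interval -0.55 to 0.30).

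HSP90B1 (ENSBTAG00000003362), the Hsp90 chaperone of the ER, stood at 529.5, 455 and 476 CPM in the control libraries, 675, 555 and 414 CPM in those of low glucose and 489, 659 and 398 CPM in those with BHB. HYOU1 (ENSBTAG00000010322), a large Hsp70-like protein that exchanges the nucleotide on BiP, stood at 191, 169.7 and 202 CPM in the control libraries, 242, 218 and 185 CPM in those of low glucose and 195, 266 and 182 CPM in those with BHB. Both genes repeated the order of HSPA5 within each low glucose group, with the first library highest in low glucose and the second highest with BHB. Log2 fold changes were 0.17 (SE 0.19) and 0.083 (SE 0.19) for HSP90B1 in low glucose and with BHB, and 0.20 (SE 0.16) and 0.19 (SE 0.16) for HYOU1.

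DNAJB9 (ENSBTAG00000046588), a J-domain partner of BiP and a known target of XBP1, stood at 32.4, 23.8 and 24.6 CPM in the control libraries, 47.7, 29.9 and 19.3 CPM in those of low glucose and 22.1, 31.6 and 28.1 CPM in those with BHB. The low glucose group alone spanned the values of both other groups, and the log2 fold changes were 0.26 (95% interval -0.33 to 0.85) in low glucose and 0.019 (95% interval -0.57 to 0.61) with BHB. SDF2L1 (ENSBTAG00000000067), which works with BiP and J-domain proteins, stood at 36.4, 49.7 and 59.3 CPM in the control libraries, 61.5, 68.4 and 55.2 CPM in those of low glucose and 43.9, 83.1 and 47.9 CPM in those with BHB. Its control libraries spread widely and overlapped both other groups. The log2 fold change was 0.35 (SE 0.23) in low glucose and 0.27 (SE 0.23) with BHB, and the second of these was -0.08 without the second BHB library.

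DNAJC10 (ENSBTAG00000008390), a J-domain protein that also reduces disulphides for degradation, had the smallest unadjusted p of the 36 genes between the low glucose media. It stood at 93.0, 77.2 and 87.0 CPM in the control libraries, 103, 92.8 and 79.4 CPM in those of low glucose and 69.4, 85.5 and 77.3 CPM in those with BHB. The groups overlapped, and the log2 fold change of BHB against low glucose was -0.24 (SE 0.13, unadjusted p = 0.0894, adjusted p = 1, edgeR). HSPA13 (ENSBTAG00000012908), an Hsp70-like protein of the microsomes, was the chaperone gene with negative values in both comparisons with control. It stood at 21.6, 17.8 and 18.7 CPM in the control libraries, 18.7, 15.3 and 10.8 CPM in those of low glucose and 13.5, 18.7 and 13.7 CPM in those with BHB. A single library in each low glucose group reached the control range, and the log2 fold changes were -0.37 (95% interval -0.83 to 0.086) in low glucose and -0.34 (95% interval -0.80 to 0.12) with BHB. The J-domain proteins DNAJB11 and DNAJC3 stood at 79.3 ± 6.81 and 65.5 ± 1.69 CPM in the control group (SD, n = 3), at 90.8 ± 9.88 and 69.5 ± 14.6 in low glucose and at 86.1 ± 9.08 and 64.0 ± 6.68 with BHB.

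**Figure D2:**
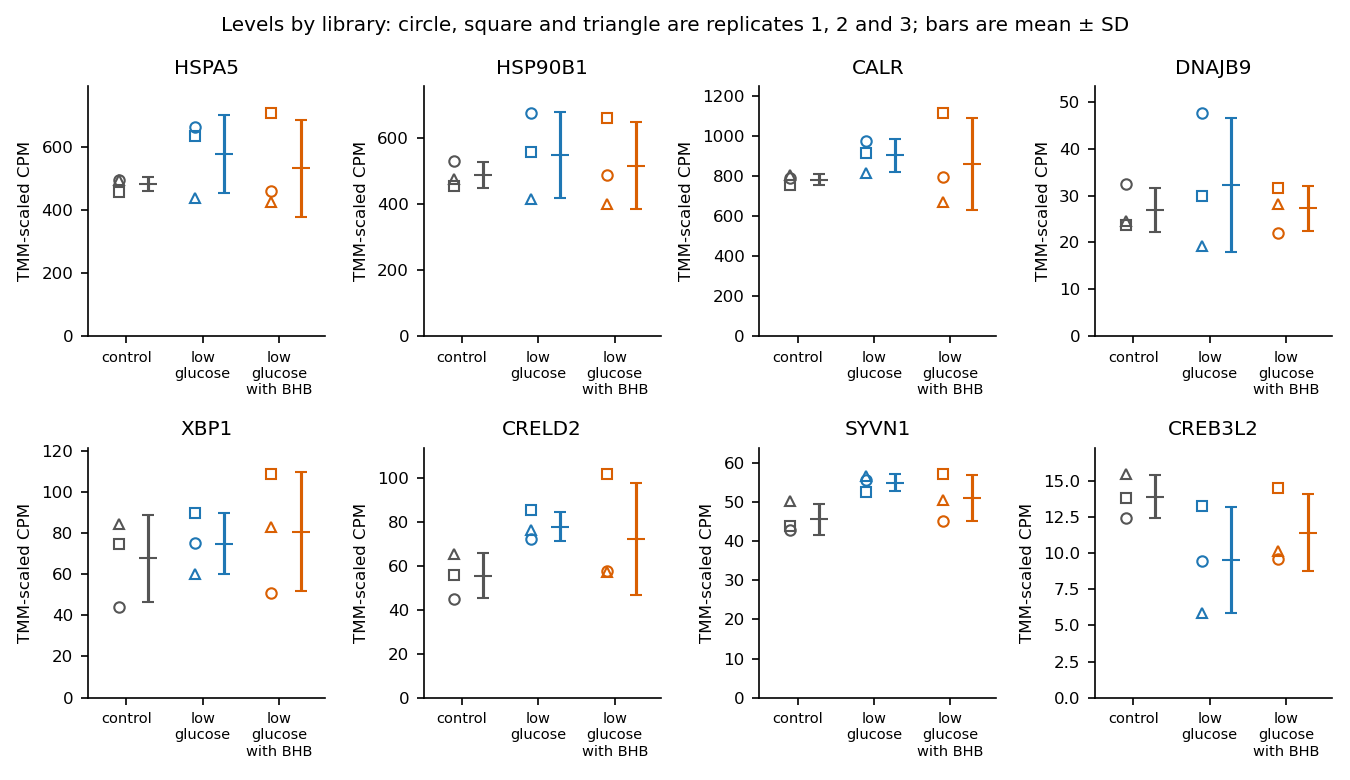
TMM-scaled CPM (y axis) of 8 of the genes in each library, by medium (x axis); circles, squares and triangles are replicates 1, 2 and 3, and bars are the mean with the SD of 3 libraries. For HSPA5 and HSP90B1 the control libraries lie close together while the low glucose and BHB libraries spread around them; CALR, CRELD2 and SYVN1 show low glucose libraries all above control.

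CALR and CANX encode calreticulin and calnexin, the lectin chaperones that hold glycoproteins while they fold. CALR (ENSBTAG00000015114) stood at 789, 755 and 807 CPM in the control libraries, 978, 917 and 819 CPM in those of low glucose and 796, 1118 and 669.9 CPM in those with BHB. All low glucose libraries lay above all control libraries, the lowest of them by a small margin, while the BHB group reached above and below both. CALR had a log2 fold change of 0.21 (95% interval -0.14 to 0.56) in low glucose and 0.14 (95% interval -0.21 to 0.49) with BHB. CANX (ENSBTAG00000048107) stood at 954, 996 and 1062 CPM in the control libraries, 1247, 1015 and 929 CPM in those of low glucose and 718, 976 and 1067 CPM in those with BHB, with overlap among all groups and the lowest value in the first BHB library. Its log2 fold changes were 0.083 (SE 0.15) in low glucose, -0.13 (SE 0.15) with BHB and -0.21 (SE 0.15) between the low glucose media.

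The 6 disulphide enzymes had fitted fold changes above 0 in both low glucose media against control, 6 of 6 each time, and below 0 for 6 of 6 between the low glucose media. Their medians were 0.14, 0.09 and -0.06 on the log2 scale, and none passed the test. PDIA4, a protein disulphide isomerase, had low glucose libraries all above control, at 118 ± 8.90 CPM in the control group (SD, n = 3), 141 ± 8.11 in low glucose and 130.4 ± 34.4 with BHB. P4HB, the classic protein disulphide isomerase and a subunit of prolyl hydroxylase, stood at 725 ± 90.1, 783 ± 63.9 and 759.9 ± 166 CPM in the same order. For PDIA3, which works with calnexin and calreticulin, the means were 658 ± 21.3, 715 ± 91.2 and 686 ± 144 CPM, and for the isomerase PDIA6 they were 467 ± 28.7, 523 ± 84.0 and 507 ± 103 CPM. ERO1A and ERO1B, the oxidases that recharge the isomerases, stood at 44.0 ± 3.60 and 28.3 ± 2.05 CPM in control, 47.6 ± 6.82 and 33.7 ± 3.77 in low glucose and 45.9 ± 3.81 and 30.4 ± 5.93 with BHB. The largest of the 6 fold changes in low glucose was 0.26 on the log2 scale, and the largest with BHB was 0.15.

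CRELD2 and MANF encode proteins that are induced by ER stress and can be secreted. CRELD2 (ENSBTAG00000047801) had the largest positive fitted fold change of the 36 genes in both comparisons with control. It stood at 45.0, 55.7 and 65.6 CPM in the control libraries, 72.1, 85.2 and 76.4 CPM in those of low glucose and 57.5, 102 and 57.3 CPM in those with BHB. Every low glucose library lay above every control library, and in the BHB group the second library lay far above while the other two lay within the control range. The log2 fold change was 0.49 in low glucose (95% interval 0.025 to 0.96, unadjusted p = 0.0405, adjusted p = 0.607, edgeR), 0.38 with BHB (95% interval -0.085 to 0.85, adjusted p = 0.834) and 0.44 for both low glucose media together (95% interval 0.026 to 0.85, adjusted p = 0.511). It therefore did not pass the test, although higher in 3 of 3 low glucose libraries; without the second BHB library its value against control with BHB was 0.049.

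MANF (ENSBTAG00000031797) stood at 99.1, 109 and 113 CPM in the control libraries, 146, 133 and 102 CPM in those of low glucose and 96.8, 122 and 98.6 CPM in those with BHB. The first and second low glucose libraries and the second BHB library lay above control, and the others lay within the control range or just below it. The log2 fold change was 0.25 (SE 0.15) in low glucose, -0.014 (SE 0.15) with BHB and -0.26 (SE 0.15, unadjusted p = 0.0962, adjusted p = 1, edgeR) between the low glucose media.

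Of the 9 genes of ER-associated degradation, the export of misfolded proteins to the proteasome, 9 had fitted fold changes above 0 in low glucose and 7 with BHB, with medians of 0.10 and 0.15 on the log2 scale. SYVN1 (ENSBTAG00000005076), the ubiquitin ligase also called HRD1, stood at 42.9, 43.9 and 50.3 CPM in the control libraries, 55.7, 52.5 and 56.7 CPM in those of low glucose and 45.3, 57.2 and 50.6 CPM in those with BHB. All low glucose libraries lay above all control libraries, and the BHB libraries overlapped both. The log2 fold change was 0.27 in low glucose (95% interval -0.0027 to 0.54, adjusted p = 0.690, edgeR) and 0.16 with BHB (95% interval -0.11 to 0.43). SEL1L, the partner of this ligase, stood at 95.7 ± 13.7 CPM in the control group (SD, n = 3), 103 ± 27.6 in low glucose and 96.7 ± 15 with BHB.

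HERPUD1 (ENSBTAG00000016896), a membrane protein that organises the degradation complex, stood at 28.8, 38.9 and 38.6 CPM in the control libraries, 34.7, 51.3 and 37.4 CPM in those of low glucose and 30.7, 57.9 and 30.5 CPM in those with BHB. The second library was the highest in each medium, and the groups overlapped, with log2 fold changes of 0.21 (95% interval -0.32 to 0.75) and 0.16 (95% interval -0.37 to 0.70). EDEM1, EDEM2 and EDEM3, mannosidase-like proteins that mark glycoproteins for disposal, had log2 fold changes of 0.033, 0.17 and 0.013 in low glucose and 0.15, 0.16 and -0.19 with BHB. EDEM1 stood at 106 ± 13.8 CPM in the control group, 109 ± 22.1 in low glucose and 117 ± 31.4 with BHB, EDEM2 at 67.2 ± 6.41, 75.7 ± 15.9 and 75.2 ± 15.7, and EDEM3 at 39.4 ± 3.20, 39.8 ± 16.7 and 34.6 ± 5.10. The derlins DERL1, DERL2 and DERL3 form part of the route out of the ER membrane. DERL1 stood at 129 ± 13.2, 138 ± 16.8 and 131 ± 21.1 CPM in the same order, DERL2 at 38.5 ± 2.94, 41.3 ± 8.22 and 35.8 ± 3.27, and DERL3 at 5.62 ± 2.10, 5.87 ± 1.11 and 7.09 ± 1.14. DERL3 had the largest fitted value of the degradation genes with BHB, 0.34 (SE 0.29) on the log2 scale, within its spread between replicates.

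SEC61A1 and SEC61B encode subunits of the channel through which new proteins enter the ER. SEC61A1 stood at 296 ± 48.6 CPM in the control group (SD, n = 3), 338 ± 13 in low glucose and 315 ± 36.5 with BHB, and SEC61B at 163 ± 35.2, 172 ± 14.1 and 159 ± 13.7. For both genes the groups overlapped and the first control library was the lowest of all 9.

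Counted over all 36 genes, libraries of low glucose lay all above those of control for 5 (PDIA4, CALR, ATF6, CRELD2 and SYVN1), where 4.31% of all tested genes did so, and all below for 1 (ATF6B), where 8.85% did. With BHB, 0 of 36 lay all above control, beside 4.77%, and 0 all below, beside 8.56%. Between the low glucose media the counts were 0, beside 2.96%, and 0, beside 2.54%. For both low glucose media together they were 0, beside 1.03%, and 0, beside 5.56%.

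For 36 of 36 genes the range within a single medium was wider than the largest difference between the means of the media, which also held for 93.8% of the 15133 genes with a value in every library. The highest mean exceeded the lowest by 1.07-fold to 1.46-fold over the 36 genes. Within control the highest library exceeded the lowest by a median of 1.19-fold, within low glucose by 1.36-fold and within BHB by 1.43-fold, beside 1.33-fold, 1.39-fold and 1.38-fold for all genes. The coefficient of variation between libraries had a median of 9.02% over the control libraries, 15.8% in low glucose and 19.6% with BHB for the 36 genes, beside 16.6%, 18.7% and 18.5% for all genes. All genes include many of lower count, and the spread of genes of similar count was not compared.

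Within each low glucose medium, the same library held the highest value for most of the genes. The second BHB library held the highest value of its medium for 31 of 36 genes, where 35.5% of all tested genes had their highest value, and the first low glucose library for 24 of 36, beside 35.8%. The third low glucose library held the lowest value for 28 of 36, beside 37.6%, and the first BHB library for 20 of 36, beside 36.4%. In control, the third library was highest for 18 of 36, beside 32.4%, and the second lowest for 17 of 36, beside 27.9%. Summed over the 36 genes, the level was 6405, 6497 and 7007 CPM in replicates 1 to 3 of control, 8206, 7569 and 6380.0 CPM in low glucose and 6066, 8400.4 and 6311 CPM with BHB. The low glucose and BHB groups thus each reached from below the lowest control library to above the highest.

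**Figure D3:**
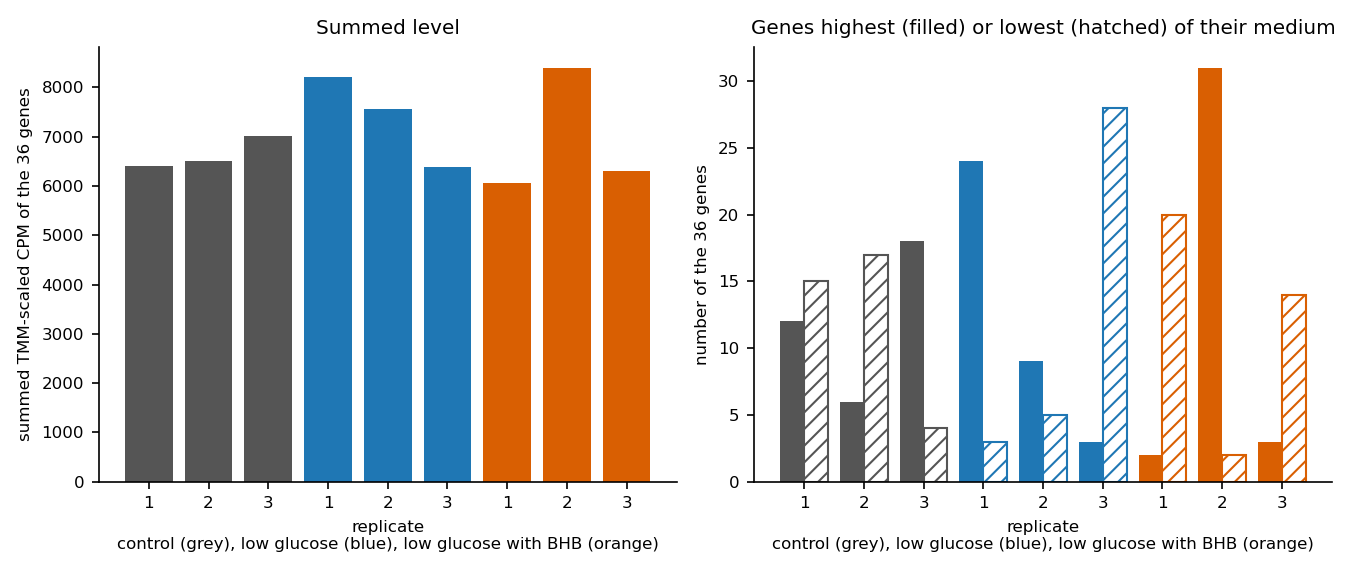
Left, TMM-scaled CPM summed over the 36 genes (y axis) for each library (x axis, replicates 1 to 3 of control in grey, low glucose in blue and BHB in orange). Right, the number of the 36 genes with their highest (filled) or lowest (hatched) value of the medium in that library, which reaches 31 highest in the second BHB library and 28 lowest in the third low glucose library.

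**Figure D4:**
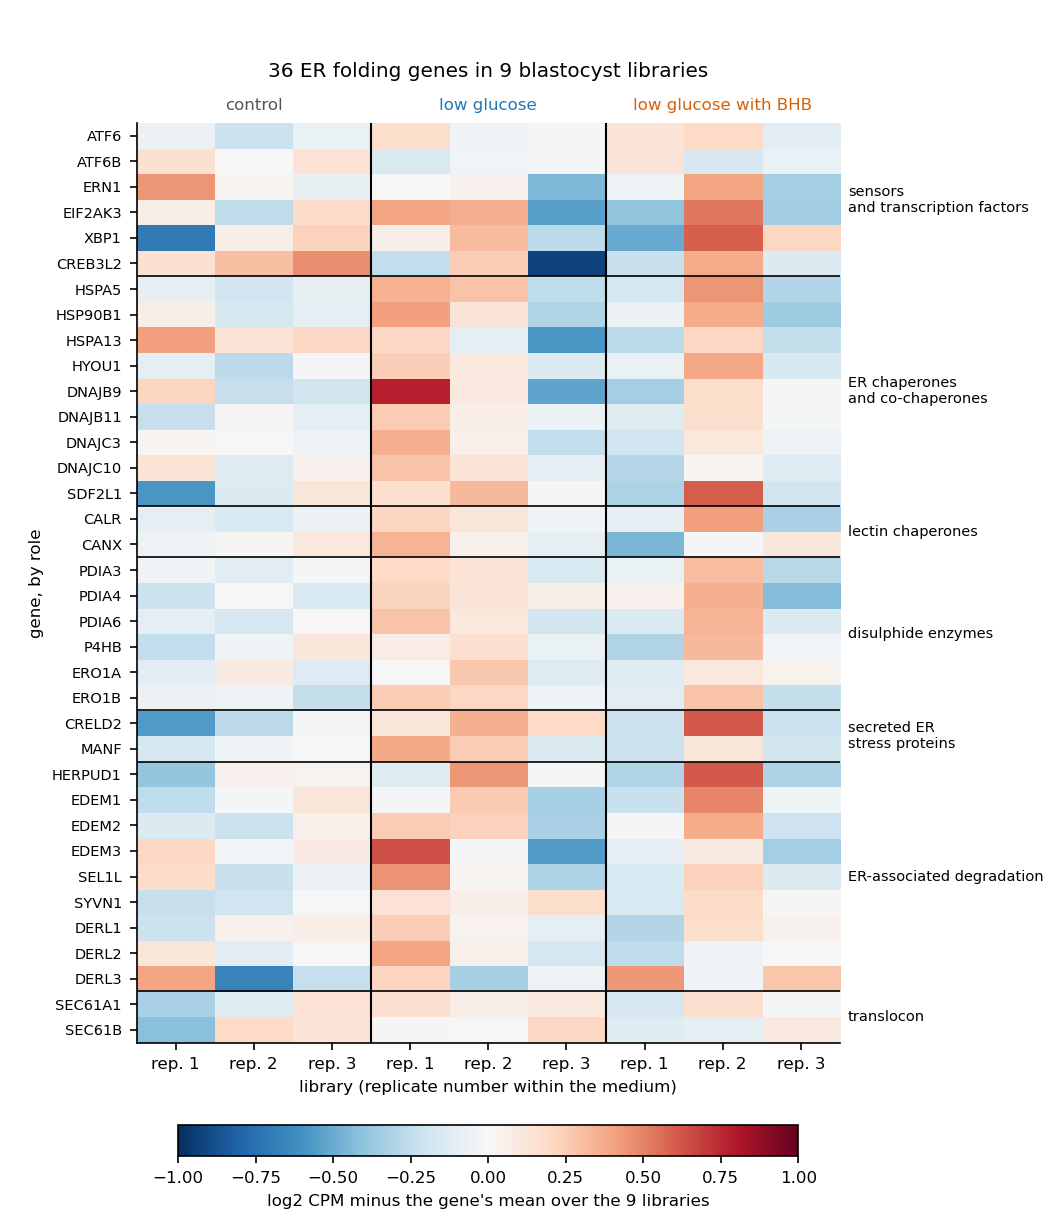
Log2 level of each of the 36 genes (rows, by role) in each of the 9 libraries (columns), as the deviation from the gene's mean over all libraries. The first low glucose and second BHB columns are mostly above the mean, with medians of 0.22 and 0.26, and the third low glucose and first BHB columns mostly below, with medians of -0.13 and -0.16.

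Other measures differed between the same libraries, and their part in the result was not tested. In low glucose the total estimated counts were 69259641, 73183334 and 58834519 in replicates 1 to 3, and with BHB they were 59096665, 75178898 and 55795045. The library lowest in ER folding genes was the shallowest of the low glucose group, and the highest was the deepest of the BHB group. The share of counts from 13 mitochondrial genes was 7.93% in the first low glucose library, the highest of all, and 2.25% in the second BHB library, the lowest of all. The list of 20 cumulus and granulosa markers had its highest values of the medium in the same libraries, for 14 of 20 genes in the first low glucose library and 12 of 20 in the second BHB library. Of all tested genes, 35.8% and 35.5% had their highest value there. Of 11 trophectoderm markers, 8 were highest in the second BHB library, and 2 in the first low glucose library.

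Neighbouring lists of ER genes showed the same libraries as extremes to different degrees. The second BHB library was the highest of its medium for 14 of 17 tested genes of N-glycan assembly and glycoprotein control, 14 of 23 other degradation genes, 12 of 17 genes of sensor processing and ER to Golgi traffic, 16 of 31 other ER folding enzymes and 11 of 23 genes of ER translocation. Of all tested genes, 35.5% were highest there. For ER translocation the third BHB library came close, with 10 of 23 genes. In the integrated stress response, the second BHB library was highest for 7 of 22 genes. That list holds kinases related to PERK as well as genes downstream of such kinases. The first low glucose library was highest for 16 of 23 translocation genes, 20 of 31 other folding enzymes and 13 of 23 other degradation genes. It was also highest for 10 of 17 genes of N-glycan assembly and 7 of 17 of sensor processing, beside 35.8% of all tested genes. In the integrated stress response it was lowest for 14 of 22 genes, beside 33.7%. Of 21 cytosolic and mitochondrial chaperones, 6 were highest in the second BHB library and 8 in the first low glucose library.

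Of 154 tested genes in the 7 neighbouring lists, 4 fell in both low glucose media against control, or 2.6%, beside 2.03% and 1.38% of all genes called, and none rose with edgeR, DESeq2 or limma-voom. Nearly every call among all tested genes was also a fall in edgeR. Lower genes made up 333 of 334 calls in low glucose, 227 of 228 with BHB and 472 of 473 with both media together. At an unadjusted p under 0.05 in edgeR, 9 of the 154 were lower in low glucose, or 5.84%, beside 6.33% of all genes, and 1 was higher, or 0.649%, beside 0.996%. The higher gene was KRTCAP2, a subunit of the oligosaccharyltransferase (log2 fold change 0.35, unadjusted p = 0.017, adjusted p = 0.362). Among 31 other ER folding enzymes, 2 fell in low glucose and 2 with BHB, and the list medians were -0.05 and -0.08 on the log2 scale. SERPINH1, the collagen chaperone also known as HSP47, stood at 113, 97.1 and 111 CPM in the control libraries, 39.6, 39.6 and 43.7 CPM in those of low glucose and 31.6, 49.4 and 43.9 CPM in those with BHB. FKBP10, a prolyl isomerase that acts on collagen, stood at 21.9, 17.2 and 22.2 CPM in the control libraries, 6.90, 5.88 and 6.45 CPM in those of low glucose and 7.01, 9.10 and 7.89 CPM in those with BHB. For both genes all 6 low glucose libraries lay below all control libraries. Log2 fold changes of SERPINH1 were -1.39 (SE 0.16, adjusted p = 0.0011, edgeR) in low glucose and -1.36 (SE 0.16, adjusted p = 0.00325) with BHB. Those of FKBP10 were -1.67 (SE 0.18, adjusted p = 0.00098, edgeR) and -1.35 (SE 0.18, adjusted p = 0.0042). Both genes passed in both comparisons with each of the 9 libraries left out in turn.

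Of 17 tested genes of N-glycan assembly and glycoprotein control, 1 fell in each low glucose medium and the list medians were 0.11 and 0.03. It was UGGT2, a relative of the glucosyltransferase UGGT1 that tags unfolded glycoproteins for calnexin and calreticulin, at 5.13, 2.90 and 3.49 CPM in the control libraries, 0.550, 0.591 and 0.797 CPM in those of low glucose and 1.15, 1.32 and 0.727 CPM in those with BHB. All 6 libraries of the low glucose media lay below control, with log2 fold changes of -2.57 (SE 0.40, adjusted p = 0.00461, edgeR) in low glucose and -1.84 (SE 0.38, adjusted p = 0.0352) with BHB. The call in low glucose held with any single library left out. The call with BHB was lost without any of the 3 control or 3 BHB libraries or the second low glucose library (adjusted p from 0.0530 to 0.169), with log2 fold changes of -1.58 to -2.03, and in a fit of the control and BHB libraries alone (-1.83, adjusted p = 0.0532, edgeR). UGGT1, named outside the rule for its relation to UGGT2, stood at 70.8 ± 8.32 CPM in the control group (SD, n = 3), 71.7 ± 11.2 in low glucose and 65.4 ± 14.4 with BHB.

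Of 22 tested genes of the integrated stress response, 1 fell in each low glucose medium, with list medians of 0.08 and 0.25. It was EIF2AK2, the kinase PKR that senses double-stranded RNA, at 8.30, 4.42 and 4.46 CPM in the control libraries, 1.48, 0.845 and 0.831 CPM in those of low glucose and 0.984, 2.28 and 1.22 CPM in those with BHB. All 6 low glucose libraries lay below the control libraries, with log2 fold changes of -2.44 (SE 0.43, adjusted p = 0.00978, edgeR) in low glucose and -1.93 (SE 0.42, adjusted p = 0.045) with BHB. The call in low glucose was lost without the second low glucose library (log2 fold change -2.29, adjusted p = 0.0583, edgeR) or the third (-2.30, adjusted p = 0.0519). The call with BHB was lost without any control library, the second low glucose library or the first or the third BHB library (-1.57 to -2.09, adjusted p from 0.0590 to 0.226), and in a fit of the control and BHB libraries alone (-1.92, adjusted p = 0.0608, edgeR). Of the 22 fitted log2 fold changes, 15 were above 0 in low glucose and 18 with BHB, beside 53.2% and 51.5% of all genes. The transcripts of ATF4 and DDIT3, factors downstream of PERK and also named outside the rule, did not pass. ATF4 had log2 fold changes of 0.30 (SE 0.16) and 0.31 (SE 0.16), and DDIT3, which encodes CHOP, of 0.31 (SE 0.38) and 0.62 (SE 0.38). Neither the proteins of these genes nor the activity of PERK were measured.

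When both low glucose media were compared with control together, GPX8, QSOX1 and TUSC3 also fell, so that 7 of the 154 genes were called, or 4.55%, beside 2.87%. Against control in single media, the 3 genes passed under some alternatives of the fit. With the replicate number as a block, QSOX1 passed in low glucose (log2 fold change -1.34, adjusted p = 0.0368, edgeR) and TUSC3 with BHB (-0.85, adjusted p = 0.0452). In low glucose, QSOX1 passed in 8 of 17 alternatives, GPX8 in 2 and TUSC3 in 1; with BHB, TUSC3 passed in 3, and QSOX1 and GPX8 in 1 each. GPX8, a peroxidase of the ER, had a log2 fold change of -1.60 (SE 0.35, adjusted p = 0.0278, edgeR). QSOX1, a sulfhydryl oxidase, had one of -1.11 (SE 0.26, adjusted p = 0.0432), and TUSC3, a subunit of the oligosaccharyltransferase, one of -0.78 (SE 0.16, adjusted p = 0.0199). Each of these calls depended on single libraries. That of GPX8 was lost without the first or the third control, any low glucose library, or the second or the third BHB library (-1.31 to -1.61, adjusted p from 0.0524 to 0.212). That of QSOX1 was lost without any control library, the second or the third low glucose library, or the first or the third BHB library (-0.99 to -1.14, adjusted p from 0.0646 to 0.181). That of TUSC3 was lost without the first or the third control or the second low glucose library (-0.67 to -0.76, adjusted p from 0.0623 to 0.139).

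In the 4 other lists, 0 genes passed in any comparison with edgeR, DESeq2 or limma-voom, and 0 reached an unadjusted p under 0.05 with any of these tools. Median log2 fold changes in low glucose and with BHB were 0.05 and -0.04 for 23 genes of ER translocation, 0.08 and 0.05 for 23 other degradation genes, 0.08 and 0.02 for 17 genes of sensor processing and traffic, and 0.07 and 0.03 for 21 cytosolic and mitochondrial chaperones. The smallest unadjusted p of these lists in low glucose belonged to SELENOS, a degradation protein of the ER membrane, at 0.0598 with a log2 fold change of 0.25 (SE 0.12, adjusted p = 0.736, edgeR).

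**Figure D5:**
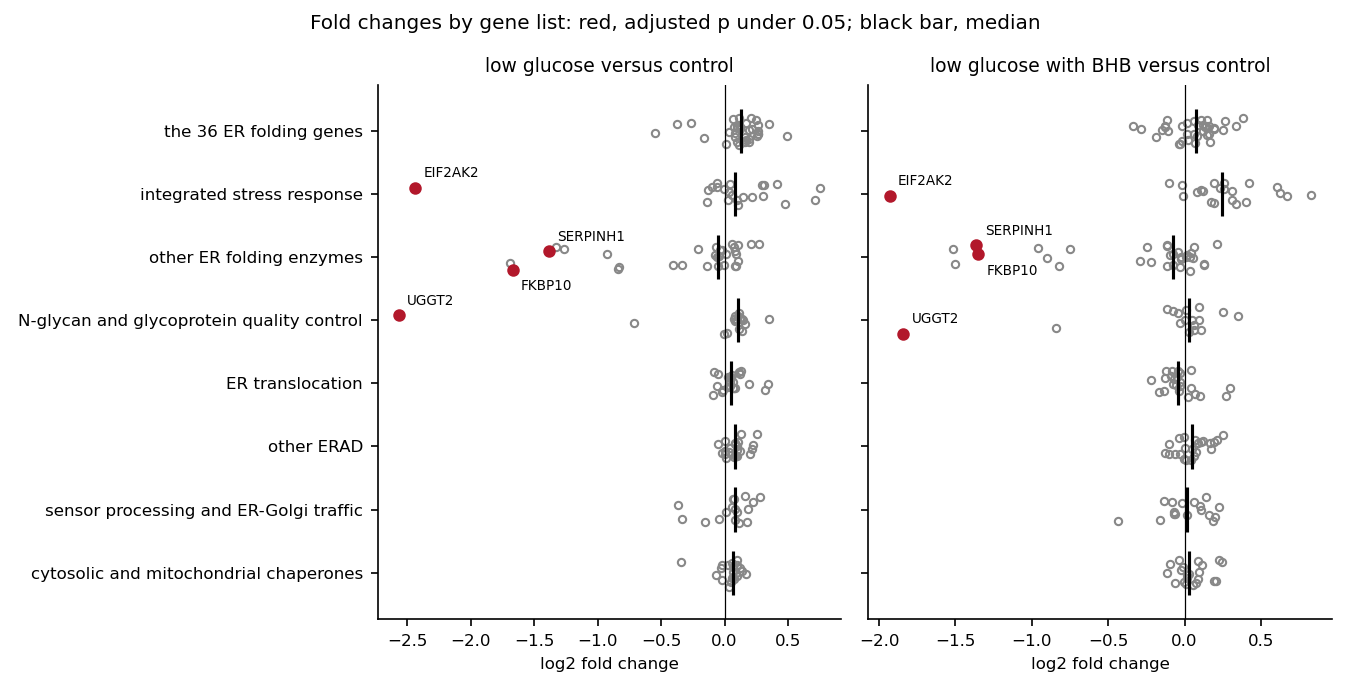
Fitted log2 fold changes (x axis) of the 36 genes and of 7 neighbouring lists (y axis) for low glucose and for BHB against control; each circle is a gene, black bars are medians, and red points passed at an adjusted p under 0.05. The red points EIF2AK2, SERPINH1, FKBP10 and UGGT2 lie at negative values, and no point of the 36 genes is red.

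Markers of cumulus and granulosa cells also differed between control and the low glucose media. Summed over the 20 markers, the level was 871 to 1436 CPM in control libraries, 398 to 558 CPM in low glucose and 323 to 488 CPM with BHB. Of the 20 fitted log2 fold changes, 18 were below 0 in low glucose with a median of -1.21, and 17 with BHB with a median of -1.27. Of all 16469 tested genes, 7704 and 7981 were below 0. The test called 6 of the 20 lower in low glucose and 7 with BHB, beside 2.03% and 1.38% of all genes called. Among them were LUM, DCN, CD44 and VIM, which other connective tissue cells also express. At an unadjusted p under 0.05 in edgeR, 10 of the 20 were lower in low glucose and 12 with BHB, beside 6.33% and 5.50% of all genes. FSHR and CYP19A1, which granulosa cells express, are named outside the rule and do not stand for the list. Levels of AMH, STAR, CYP11A1, HSD3B1 and INHBA are not given here. FSHR stood at 3.55 to 4.61 CPM in control libraries, 3.70 to 5.67 in low glucose and 3.32 to 3.85 with BHB. CYP19A1 stood at 17.1 to 28.6 CPM in control libraries, 18.4 to 20.7 in low glucose and 18.4 to 27.9 with BHB. For these 2 genes the libraries of control overlapped those of each low glucose medium. NR5A2, a nuclear receptor of granulosa cells that is also expressed in embryos, fell in both, with log2 fold changes of -1.71 (SE 0.25, adjusted p = 0.00309, edgeR) in low glucose and -1.37 (SE 0.24, adjusted p = 0.016) with BHB, as did VCAN, a proteoglycan of the expanding cumulus matrix, with -2.55 (SE 0.47, adjusted p = 0.0117) and -3.28 (SE 0.48, adjusted p = 0.00578). All 6 low glucose libraries lay below the control libraries for both genes. The call of NR5A2 with BHB was lost without the first or the third control or the first or the third BHB library (-1.25 to -1.42, adjusted p from 0.0571 to 0.0892, edgeR), and that of VCAN in low glucose without the third low glucose library (-2.27, adjusted p = 0.0555). INHA, another granulosa gene, was at 0 in the second control library and in all 3 libraries of low glucose, and the other 19 markers were above 0 in every library. The part of such cells in the falls of SERPINH1, FKBP10, UGGT2 and EIF2AK2 was not tested. The summed levels of the 36 ER folding genes did not separate control from low glucose libraries in this way.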

How the data were processed

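The deposited values are estimated counts for each gene. Of all values 19.2% were not whole at a tolerance of 1e-06, and 9 of the 36 genes had 1 or more such values. Per the submitters' processing notes, the authors used fastp, kallisto and DESeq2 with the genome build bosTau9, versions and annotation being not given in the sources used here. Estimation splits reads shared by near-identical copies, so a gene with such copies is less certain. Columns were matched to libraries by the descriptions in the labels, and media were taken from the titles.

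After rounding, counts were analysed with edgeR 4.0.16 (R 4.3.3). The filterByExpr function (minimum count 10, minimum total 15) retained 16469 of 22127 genes, all 36 included. A quasi-likelihood fit of all 9 libraries with TMM factors and 3 group means gave 4 comparisons, two-sided, with Benjamini-Hochberg adjustment over all tested genes and calls at an adjusted p under 0.05. The fit's common coefficient of biological variation was 0.322. Standard errors were the fold change over the root of F, and intervals have 95% confidence. Every pair of replicates differed by more than sampling noise.

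The 36 members and the neighbouring lists were chosen with earlier results of these data known, and the lists got no test of their own. Of 202 listed neighbours and markers, 199 were found, 1 of them through a RefSeq gene ID. Members with values per library were 13 fixed genes and the 3 of smallest unadjusted p in each comparison. From other lists, the genes that passed were named, or otherwise those of smallest p. Further genes are marked as outside this rule. Alternatives were RLE factors, the replicate number as a block, no filter, a minimum mean count of 50, fits of only the groups compared, DESeq2 1.42.0, limma-voom (limma 3.58.1), leaving out mitochondrial transcripts and leaving out each library. Deviations of libraries with the same replicate number correlated at 0.115, 0.243 and 0.102 between the low glucose media in replicates 1 to 3. They correlated at 0.131, 0.049 and 0.042 between control and low glucose, and at 0.144, 0.063 and 0.046 between control and BHB. Only between the low glucose media did every value pass a limit of 0.1. Correlations across media between different replicate numbers were not computed, and the labels give no pairing, so whether the numbers pair samples stayed undecided. The fit was run on simulated counts with known changes of 2-fold or more, drawn separately for each gene. The fitted changes of the 36 genes were smaller, so the simulation does not measure how often such changes would be called. Figures were drawn with matplotlib 3.10.9.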

Additional observations from a re-analysis of the deposited data

How the results depend on the processing

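In all 17 alternative fits, 0 of the 36 genes passed in any of the 4 comparisons; the smallest adjusted p was 0.162, of CRELD2 in low glucose without the second BHB library. With the replicate block, 0 of 36 passed in each comparison, while the calls among all genes were 405 in low glucose, 278 with BHB, 0 between the low glucose media and 551 for both media together. DESeq2 called 557 genes in low glucose and 420 with BHB, against 334 and 228, and 2 between the low glucose media, where edgeR called 0. Of 31 other ER folding enzymes, DESeq2 called 4 in low glucose and 3 with BHB and limma-voom 3 and 2, against 2 and 2 with edgeR. With single libraries left out, the calls among all genes ranged from 196 to 391 in low glucose, from 91 to 257 with BHB, were 0 between the low glucose media, and ranged from 294 to 476 for both together. The median log2 fold change of the 36 genes ranged from 0.08 to 0.25, from -0.094 to 0.15, from -0.22 to 0.02 and from 0.04 to 0.18 in the same order. It turned to -0.094 with BHB against control without the second BHB library. Between the low glucose media it turned to 0.0048 without the first low glucose library and to 0.023 without the third BHB library. With BHB against control, the log2 fold change of SDF2L1 ranged from -0.078 to 0.45, and between the low glucose media that of QSOX1 ranged from -0.19 to 0.66, each lowest without the second BHB library. Of 2448 alternative values of the 36 genes, 143 changed sign. The cause of these changes was not tested.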
